A study of Mus musculus with 4 samples.

Results

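Interferon-stimulated genes were measured in mouse embryonic fibroblasts (MEFs), cells grown out of embryos, that were labelled Wip1+/+ or Wip1-/-. The set holds 44 genes known to be induced by interferon, of 18193 genes on the array. They were chosen by name from a list, with earlier results of these data known. Of these, 42 had a probe set annotated to them alone and 34 had a mean signal of at least 67.95 over the arrays, the level required of a gene before its ratios were counted. Isg15 and Ifi44 had no probe set annotated to 1 gene. Each genotype gave 1 array of unirradiated cells, labelled 0 h, and 1 array of cells collected 4 h after 5 Gy of gamma radiation, so there were 4 arrays in 4 groups. Wip1 is the phosphatase encoded by Ppm1d, which dephosphorylates p53 and other proteins of the DNA damage response. Per the series text the arrays were meant for p53 target genes. The labels give no strain, embryo, passage or culture, and name no allele beyond Wip1-/-. No array holds unirradiated cells at 4 h, so radiation and 4 h of culture cannot be told apart.

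Each group is 1 array with no replicate, so no p-value is given and the variation among cultures is unknown. An additive model over the 4 arrays was not run. The error given is the SD among a gene's probe sets of the log2 ratio, pooled over 5278 genes. It was 0.65 for the ratio between genotype labels in unirradiated cells, 0.41 in irradiated cells, 0.37 for irradiation in Wip1+/+ cells and 0.62 in cells labelled Wip1-/-. The unirradiated array labelled Wip1-/- stood apart: hybridization controls differed from the other arrays with an SD of 0.436 to 0.469 on the log2 scale, against 0.0738 to 0.103 among the other arrays. Ppm1d itself was not lower in both comparisons on either of its probe sets. Its brighter probe set read 374.9 and 364.1 in unirradiated and irradiated Wip1+/+ cells and 503.6 and 481.9 in cells labelled Wip1-/-. Its dimmer probe set read 316.8 and 463.1 against 219.3 and 561.1. The labels do not say which exons were deleted, so these signals cannot check the genotype, and "labelled Wip1-/-" is written throughout.

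Type I interferons bind the receptor chains Ifnar1 and Ifnar2. The bound receptor activates JAK kinases, and these lead to a complex of STAT proteins with Irf9 that binds a DNA sequence called the interferon-stimulated response element. Type II interferon acts through STAT dimers on a different sequence, the gamma-activated site. The induced genes include sensors of foreign nucleic acid, enzymes and GTPases that block viruses and intracellular microbes, and regulators such as Irf7 and Usp18 that amplify or damp the pathway. Fibroblasts keep a low level of this programme without infection, through small amounts of interferon that they secrete.

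Promoter sequence was examined for the cores of the response element and of the gamma-activated site. RefSeq promoter windows (build GRCm38.p6) were found for 33 of the 44 members, and the 250 bases before each annotated start were searched on both strands. The core of the response element, GAAANNGAA, was present for 15 of the 33 members, against 8.18% of 27025 genes and 7.13% of 32851 windows. The gamma-activated core, TTCNNNGAA, was present for 9 of the 33, against 8.13% of genes and 7.02% of windows. The cores can overlap, as they do at Bst2. Among the 13 members with a window that were at least 2-fold lower under the Wip1-/- label in both comparisons described below, 7 held the response element core, and among the other 16 that could be compared, 6 did. The gamma-activated core was present for 3 of these 13 and for 6 of the other 16. A match is a run of letters and was not tested for binding. The windows of Ifit1, Bst2 and Irgm2 are shown since these 3 genes were lower in both comparisons and hold the core once or more. They run 5′ to 3′ on the strand of the gene, with matches to either core in capitals.
Ifit1: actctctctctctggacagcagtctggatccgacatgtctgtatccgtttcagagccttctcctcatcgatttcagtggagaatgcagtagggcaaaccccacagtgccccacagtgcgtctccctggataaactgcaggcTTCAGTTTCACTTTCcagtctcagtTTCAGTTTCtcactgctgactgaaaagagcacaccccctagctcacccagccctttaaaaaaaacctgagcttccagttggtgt
Bst2: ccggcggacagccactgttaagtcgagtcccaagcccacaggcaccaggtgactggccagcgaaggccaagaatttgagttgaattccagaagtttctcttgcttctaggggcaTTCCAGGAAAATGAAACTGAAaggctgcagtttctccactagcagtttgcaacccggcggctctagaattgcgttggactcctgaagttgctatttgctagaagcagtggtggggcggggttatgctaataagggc
Irgm2: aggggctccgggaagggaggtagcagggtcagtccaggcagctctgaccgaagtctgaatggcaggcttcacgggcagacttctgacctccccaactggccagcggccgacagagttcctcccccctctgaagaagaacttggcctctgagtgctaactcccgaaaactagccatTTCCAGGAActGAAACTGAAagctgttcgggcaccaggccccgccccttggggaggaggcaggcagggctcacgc
The Ifit1 window lies at chr19:34640639-34640888 on the plus strand. It holds the response element core 3 times on the opposite strand, between 109 and 76 bases before the start, with the first 2 copies overlapping. The Bst2 window lies at chr8:71537473-71537722 on the minus strand. There a gamma-activated core, 136 to 128 bases before the start, runs into 2 overlapping response element cores that end 116 bases before it. The Irgm2 window lies at chr11:58214727-58214976 on the plus strand, with a gamma-activated core at 75 to 67 bases before the start and a response element core at 64 to 56.

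Most of the measured members were lower on the arrays labelled Wip1-/-, with or without radiation. In unirradiated cells 20 of 34 were at least 2-fold lower, against 6.83% of the 11546 genes that could be compared, and 1 was at least 2-fold higher, against 5.14%. In irradiated cells 23 of 34 were at least 2-fold lower, against 2.94% of all genes, and 1 was higher, against 2.35%. The median log2 ratio of the 34 was -1.27 in unirradiated and -1.10 in irradiated cells, beside 0.05 and -0.00 over all genes. The 2 comparisons share no array. Both put 16 of the 34 at least 2-fold lower, against 1.28% of all genes, and 1 at least 2-fold higher, against 0.788%. Both arrays labelled Wip1-/- were below both Wip1+/+ arrays for 26 of the 34, against 18.7% of all genes. Across genes, the ratios in unirradiated and irradiated cells had a Pearson r of 0.88 and a Spearman rho of 0.78 over the 34 members, and of 0.32 and 0.21 over all genes. Genes are not independent replicates, the members were chosen with earlier results of these data known, and this is a description of 4 arrays. Since the arrays read RNA from whole cultures, fewer cells of a type and less RNA per cell cannot be told apart.

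The same pattern was present without the array whose controls stood apart. The irradiated array labelled Wip1-/- was at least 2-fold below the mean of both Wip1+/+ arrays for 19 of 34 members, against 2.58% of all genes, with a median log2 ratio of -1.08. Of the 16 members lower in both comparisons, 15 were among these 19; the other, Dtx3l, had a log2 ratio of -0.95. The filter on low signal bears on the counts, since 5 members (Oasl2, Ifit1, Iigp1, Trim30a and Xaf1) reached it only through the Wip1+/+ arrays and Ifi202b only through those labelled Wip1-/-. A signal under 46.5 was set to that floor, and a fold against a floored signal is a lower bound.

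**Figure D1:**
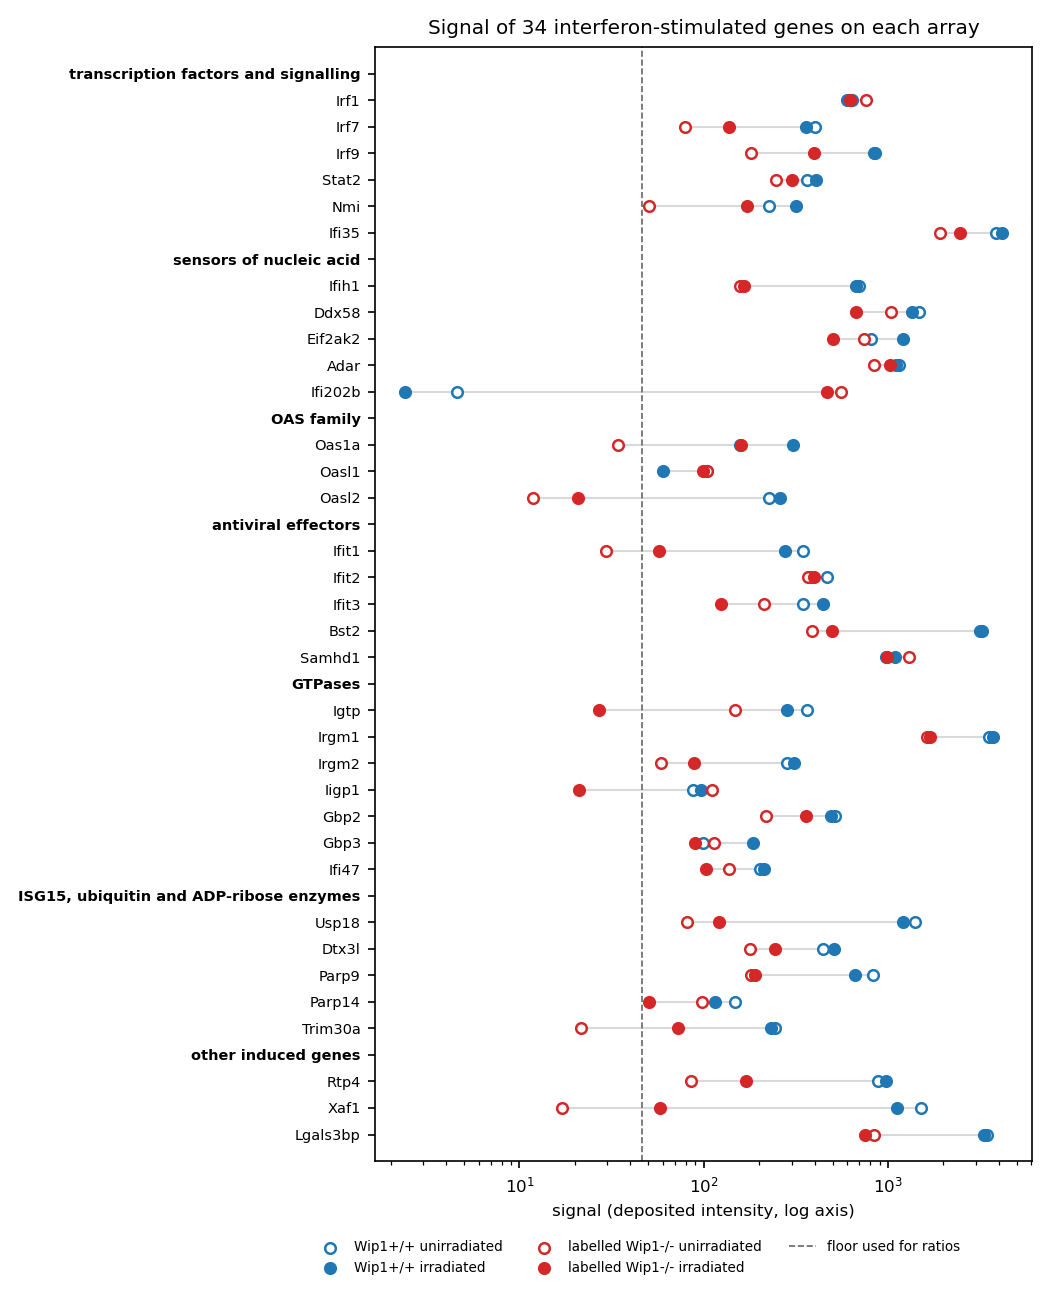
Signal of each of the 34 measured members on the 4 arrays, on a log axis and grouped by role; open circles are unirradiated and filled circles irradiated cells, blue Wip1+/+ and red labelled Wip1-/-. Red points lie left of both blue points for 26 genes, and right of them for Ifi202b alone; the dashed line is the floor of 46.5.

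**Figure D2:**
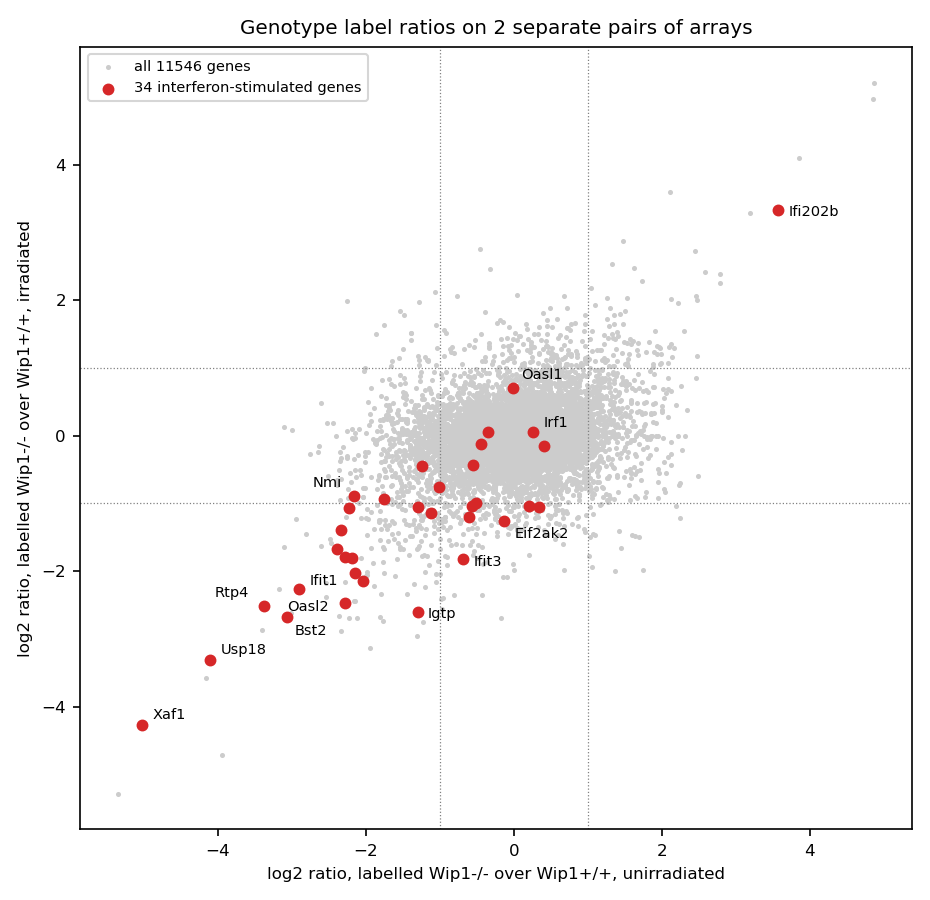
Log2 ratio of labelled Wip1-/- over Wip1+/+ in unirradiated (x axis) and irradiated cells (y axis) for all 11546 genes (grey) and 34 members (red); dotted lines mark 2-fold. The lower left corner holds 16 members and the upper right corner holds Ifi202b.

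Transcription factors and signalling proteins of the pathway came apart into those that were far lower and those that were not. Irf7, which drives later waves of interferon production, read 403.1 and 361.0 on the unirradiated and irradiated Wip1+/+ arrays and 79.5 and 137.8 on the arrays labelled Wip1-/-. It was 5.07-fold lower in unirradiated and 2.62-fold lower in irradiated cells, with no overlap between the labels. Irf9, the DNA-binding partner of the STAT complex, read 850.0 and 836.3 against 181.3 and 397.8. Both Wip1+/+ arrays were high, and the irradiated array labelled Wip1-/- lay between them and the unirradiated one, at 4.69-fold and 2.10-fold lower. Nmi, which binds STAT proteins, read 225.1 and 316.2 against 50.5 and 171.1, and was 4.46-fold lower before radiation and 1.85-fold lower after it. Its partner Ifi35 was bright on all arrays, at 3852.4 and 4162.6 against 1904.0 and 2451.5. Ifi35 was 2.02-fold lower in unirradiated cells, just past the threshold. With cyclic loess (-0.997) or scaling by the brighter probe sets (-0.95) the log2 ratio was under 2-fold, and its other probe sets went the same way by less than 2-fold. Stat2, at 362.1 and 406.8 against 247.3 and 302.4, was below both Wip1+/+ arrays on both others but by less than 2-fold. Irf1, a factor induced mainly by type II interferon, read 634.5 and 595.4 against 759.0 and 620.8, and did not reach 2-fold either way.

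Among sensors of nucleic acid, Ifih1 (MDA5, a sensor of long double-stranded RNA) differed most of those that were lower. Its signal was 692.6 and 669.6 in Wip1+/+ cells and 156.5 and 164.9 in cells labelled Wip1-/-. The arrays of each label lay close together, 4.43-fold apart in unirradiated and 4.06-fold apart in irradiated cells. Ddx58 (RIG-I, a sensor of RNA ends) read 1479.7 and 1346.7 against 1032.2 and 672.7. It was 1.43-fold lower in unirradiated and 2.00-fold lower in irradiated cells. That last ratio was -0.99 on the log2 scale, just under 2-fold, with cyclic loess or with scaling by the brighter probe sets. Of its other 2 probe sets 1 went the same way by less than 2-fold and 1 the opposite way. Eif2ak2 (PKR, a kinase that halts translation on binding double-stranded RNA) read 809.4 and 1202.2 against 737.8 and 502.3, a 2.39-fold lower signal in irradiated cells. A probe set of similar brightness read 842.2 and 1219.3 against 586.4 and 582.6, while a dimmer one went slightly the opposite way. Adar, which edits double-stranded RNA, stayed within 1.36-fold on its brightest probe set, at 1143.2 and 1109.8 against 840.9 and 1024.1. A dimmer probe set of Adar had log2 ratios of -0.74 in unirradiated and -0.40 in irradiated cells. Another, near the floor, had 0.14 and -0.50.

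Ifi202b was the exception in direction. This gene of the p200 family, whose proteins bind DNA or act beside those that do, read 4.6 and 2.4 in Wip1+/+ cells and 552.7 and 467.6 in cells labelled Wip1-/-. Both Wip1+/+ signals were under the floor, so the gene was at least 11.9-fold higher in unirradiated and at least 10.1-fold higher in irradiated cells labelled Wip1-/-. Of its neighbours in the same cluster on chromosome 1, Mndal and Ifi203 were lower. Mndal had a log2 ratio of at most -1.77 in unirradiated cells and of -1.86 in irradiated cells. For Ifi203 these were at most -1.58 and -0.83. Aim2 was under the floor on each array, and Ifi204, a dim member of the cluster, did not keep 1 direction. Ifi202b rests on a single probe set of a type (_s_at) that can match several related transcripts. Its expression is known to differ between inbred mouse strains, and strain is not in the labels, so genotype and strain cannot be told apart here.

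The OAS family makes or mimics the enzymes that produce 2′-5′ oligoadenylate, the signal for RNA breakdown, and its members did not move alike. Oasl2 read 226.1 and 257.9 in Wip1+/+ cells, against 11.8 and 20.7 under the floor on the others, at least 4.86-fold and at least 5.55-fold lower. Oasl1, its neighbour on chromosome 5, read 104.5 and 60.5 against 103.6 and 98.9, and stayed under 2-fold in every comparison. Oas1a read 156.9 and 306.0 against 34.4 and 159.9. It was at least 3.37-fold lower in unirradiated and 1.91-fold lower in irradiated cells, and its irradiated signal under the Wip1-/- label overlapped the unirradiated Wip1+/+ signal.

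Of the antiviral effectors that could be compared, Bst2 (tetherin, which holds budding virus at the cell surface) was the brightest. Its signal was 3255.4 and 3174.5 in Wip1+/+ cells and 387.4 and 497.9 in cells labelled Wip1-/-, 8.40-fold and 6.38-fold lower. Ifit1, which binds viral RNA that lacks the host's cap marks, read 347.9 and 276.7 against 29.4 and 57.5, at least 7.48-fold and 4.81-fold lower. Its neighbours on chromosome 19 differed from it. Ifit3 read 343.8 and 442.0 against 212.8 and 124.6, 1.62-fold lower in unirradiated and 3.55-fold lower in irradiated cells. Ifit2 read 468.3 and 382.1 against 366.9 and 398.5, and the labels overlapped. Samhd1, an enzyme that degrades the building blocks of DNA, read 973.0 and 1092.5 against 1294.4 and 982.8 on its brightest probe set, with overlap as well. A dimmer probe set had a log2 ratio of 1.48 in unirradiated cells and another had -1.69, so the reading for Samhd1 depends on the probe set. In irradiated cells these 2 ratios were 0.24 and 0.04.

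Interferon-induced GTPases, which attack the vacuoles of intracellular microbes, were at least 2-fold lower for 4 of 7 members in unirradiated cells and for 6 of 7 in irradiated cells, beside the 6.83% and 2.94% of all genes given above. Irgm1, a regulator of the family, was among the brightest members, at 3526.7 and 3708.9 against 1620.8 and 1688.8, 2.18-fold and 2.20-fold lower. Irgm2 read 283.9 and 309.7 against 58.4 and 89.0, 4.86-fold and 3.48-fold lower. Igtp, which lies beside Irgm2 on chromosome 11, read 364.6 and 281.7 against 147.9 and 27.1. The irradiated array labelled Wip1-/- was its lowest and was under the floor, so the difference there was at least 6.06-fold, against 2.47-fold in unirradiated cells. Ifi47 read 203.3 and 211.2 against 137.0 and 103.1, 1.48-fold and 2.05-fold lower. Gbp2, a guanylate-binding protein, read 513.8 and 489.6 against 216.8 and 358.7 and was 2.37-fold lower in unirradiated and 1.37-fold lower in irradiated cells. In unirradiated cells its other probe set differed in the same direction by less than 2-fold. Gbp3 read 99.3 and 184.9 against 114.2 and 89.7 and was 1.15-fold higher in unirradiated and 2.06-fold lower in irradiated cells. The irradiated ratios of Gbp3 and Ifi47 were just under 2-fold with quantile normalization, at -0.98 each on the log2 scale. Iigp1 was the dimmest member that could be compared, at 87.1 and 96.7 against 110.4 and 21.0, at least 2.08-fold lower in irradiated cells. Its other probe set, near the floor, read 52.5 and 58.2 against 18.6 and 56.4. The log2 ratio of that probe set in irradiated cells was -0.045, so the count of Iigp1 as lower depends on the probe set.

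Enzymes of the ISG15, ubiquitin and ADP-ribose group were at least 2-fold lower in both comparisons for 4 of 5 members, against 1.28% of all genes. Parp14 passed 2-fold in irradiated cells only. Usp18, which removes ISG15 from proteins and damps the receptor, read 1394.5 and 1206.8 in Wip1+/+ cells and 80.9 and 121.5 in cells labelled Wip1-/-. It was 17.2-fold lower in unirradiated and 9.93-fold lower in irradiated cells, with all 4 signals above the floor. Parp9, an ADP-ribosyltransferase, read 824.1 and 660.8 against 180.2 and 188.9, 4.57-fold and 3.50-fold lower. Its partner Dtx3l, a ubiquitin ligase, read 441.5 and 507.2 against 179.1 and 244.9, 2.47-fold and 2.07-fold lower. A dimmer probe set of Dtx3l was also over 2-fold lower in unirradiated cells but had a log2 ratio of 0.11 in irradiated cells. Parp14, next to both on chromosome 16, read 148.5 and 115.1 against 97.6 and 50.2, 1.52-fold and 2.29-fold lower. Trim30a read 245.0 and 231.7 against 21.6 and 72.9, at least 5.27-fold and 3.18-fold lower. Its other probe set read 147.3 and 141.1 against 78.0 and 30.5, which is the same direction.

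The remaining induced genes held some of the largest differences. Rtp4, a chaperone of membrane receptors, read 884.9 and 970.1 against 85.4 and 170.3, 10.4-fold and 5.70-fold lower. Lgals3bp, a secreted glycoprotein that binds galectins, read 3452.0 and 3332.3 against 836.4 and 754.6, 4.13-fold and 4.42-fold lower. For both genes the labels were far apart and the Wip1+/+ arrays were close together. Xaf1, which binds inhibitors of apoptosis, read 1518.6 and 1116.7 in Wip1+/+ cells and 17.1 and 57.8 in cells labelled Wip1-/-, at least 32.7-fold and 19.3-fold lower. Its other probe set did the opposite, at 38.7 and 34.5 against 392.8 and 639.9, so the direction for Xaf1 depends on the probe set. Of the 16 members lower in both comparisons, 12 rest on a single probe set; of the other 4, Rtp4's other probe set was under the floor on all arrays.

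The 8 members below the required mean were Dhx58, Zbp1, Ifi204, Oas2, Mx1, Mx2, Rsad2 and Cmpk2. The highest of these, Ifi204, read 102.3 and 65.0 in Wip1+/+ cells and 7.1 and 83.1 on the others, with a mean of 64.4. Just above the requirement lay Iigp1 and Oasl1, with means of 78.8 and 91.9. Mx1 and Mx2, GTPases against influenza and related viruses, read 32.8 and 18.2 against 74.6 and 2.1, and 48.7 and 67.2 against 123.6 and 7.4. Rsad2 (viperin) read 53.4 and 4.4 against 89.7 and 39.3. In these 3 genes and in Dhx58 (96.0) the unirradiated array labelled Wip1-/- was the highest on the brightest probe set, at signals near the floor. Mx1 and Mx2 rest on a single probe set each. The other probe sets of Rsad2 and Dhx58 were not highest on that array. Those of Rsad2 read 51.9 and 62.6 against 25.4 and 44.6, and 86.1 and 55.4 against 14.1 and 11.9. Another probe set of Dhx58 read 28.0 and 53.7 against 3.4 and 11.2. Zbp1, a sensor of unusual nucleic acid, and Oas2 were above the floor only in irradiated Wip1+/+ cells, at 76.6 and 77.9. The brightest probe set of Cmpk2 was above the floor only there too, at 56.3, and its other probe set only in unirradiated Wip1+/+ cells, at 65.6. With all 42 members counted, 21 were at least 2-fold lower and 3 higher in unirradiated cells, against 5.07% and 5.58% of all 18193 genes. In irradiated cells 23 were lower and 1 higher, against 2.31% and 1.87%.

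The counts of members that differed 2-fold with radiation were small and near the shares of all genes, so they do not set the members apart. In Wip1+/+ cells none of the 34 was 2-fold higher or lower 4 h after 5 Gy, against 1.58% and 1.5% of all genes, and the median log2 ratio was -0.03. The largest ratios there were 0.96 for Oas1a and 0.90 for Gbp3, and the lowest was -0.79 for Oasl1. These are ratios of the brightest probe sets. A dimmer probe set of Samhd1 had a ratio of 1.34 in Wip1+/+ cells, and another had 1.43 in cells labelled Wip1-/-. In cells labelled Wip1-/- 3 members were at least 2-fold higher, against 5.7% of all genes, and 2 were at least 2-fold lower, against 4.62%. The higher ones were Oas1a, at least 3.44-fold, Nmi at 3.39-fold and Irf9 at 2.19-fold; Rtp4 lay just under at 1.99-fold. The lower ones were Igtp, at least 3.18-fold, and Iigp1, at least 2.37-fold, whose other probe set had a log2 ratio of 0.28. All 5 use the array whose controls stood apart, and no array without it gives this comparison.

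The difference between the irradiation ratios, labelled Wip1-/- minus Wip1+/+, was 1 or more on the log2 scale for Nmi (1.27) and Irf9 (1.16), against 6.45% of all genes. It was -1 or less for 5 members, against 6.4% of all genes. These were Eif2ak2 and Ifit3 at -1.13 each, Gbp3 at -1.25, Igtp at -1.30 and Iigp1 at -1.40. The other probe sets of Eif2ak2 had -0.54, at similar brightness, and 0.42, and that of Iigp1 had 0.13. Nmi, Irf9, Ifit3, Gbp3 and Igtp each rest on a single probe set. Every such difference uses the unirradiated array labelled Wip1-/-, whose controls stood apart. The SD between probe sets for this difference was 0.71, and it was not tested. As a check that the irradiated cells had responded, 11 measured p53 targets of a list of 12 were read. In Wip1+/+ cells all 11 had an irradiation ratio above 0, against 6042 of 11546 genes, with a median log2 ratio of 0.70. In cells labelled Wip1-/- 9 of 11 did, against 5470 of 11546 genes, with a median of 0.79. Fas (-0.40) and Zmat3 (-0.15) were below 0 there.

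**Figure D3:**
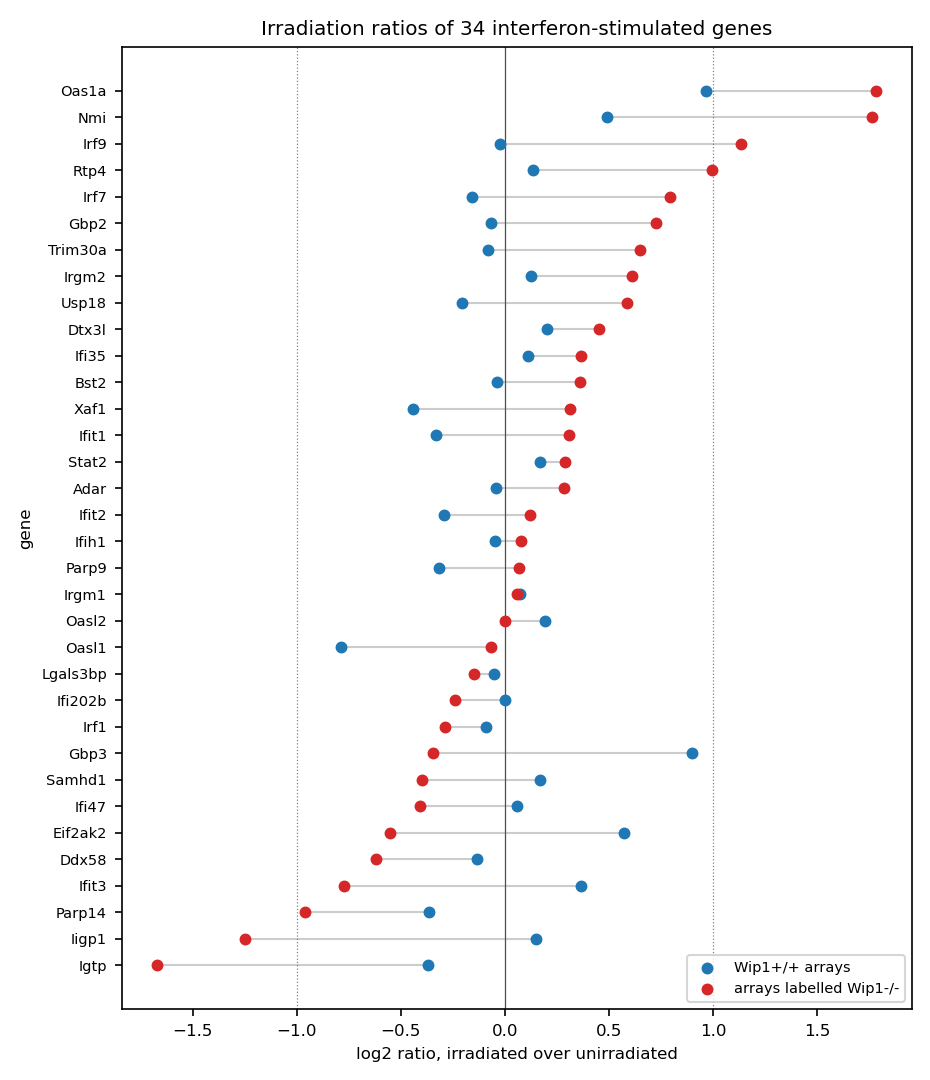
Log2 ratio of irradiated over unirradiated cells for each of the 34 members, blue in Wip1+/+ cells and red in cells labelled Wip1-/-, ordered by the red values; dotted lines mark 2-fold. Every blue point lies within the dotted lines, while Oas1a, Nmi and Irf9 lie right of them and Igtp and Iigp1 left in red; a gene under the floor on both arrays is drawn at 0.

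Genes that act before the members in the pathway were read on the same arrays. The shares of all genes at least 2-fold lower and higher were 6.83% and 5.14% in unirradiated cells and 2.94% and 2.35% in irradiated cells. The receptor chains were present on every array. Ifnar1 read 919.6 and 835.6 in Wip1+/+ cells and 1277.0 and 1211.3 in cells labelled Wip1-/-, 1.39-fold and 1.45-fold higher. Ifnar2 read 1058.6 and 1188.4 against 1649.5 and 1023.1, with the labels overlapping. Of 14 measured receptor, JAK, STAT and inhibitor genes, 2 were at least 2-fold lower in unirradiated cells (Ptpn6 and Ptpn2, phosphatases of the pathway) and none in irradiated cells. Of 15 measured genes that lead from nucleic acid sensing to interferon, 1 (Cgas, the DNA sensor) was lower and 1 (Irf2, a repressor of interferon genes) higher in unirradiated cells, and none passed 2-fold in irradiated cells. Irf3, the factor that starts interferon transcription, read 848.1 and 939.7 against 880.4 and 778.3. Of 16 interferon genes, 9 had a probe set and 7 of these were under the floor on all 4 arrays. Ifnb1 read 80.9 and 3.3 against 73.8 and 21.9, higher on both unirradiated arrays than on both irradiated ones, with each signal near or under the floor. The other, Ifnab, read 48.8 and 83.5 against 66.5 and 50.6, with the labels overlapping.

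Other genes known to respond to interferon, a list of 47 that excludes the members, were counted in the same way. Of 24 that could be compared, 8 were at least 2-fold lower in unirradiated and 7 in irradiated cells, against 6.83% and 2.94% of all genes. The medians were -0.73 and -0.38 on the log2 scale. Mndal, Slfn2, Ccl5 and Trim34a were lower in both. Herc6 was 2.98-fold higher in irradiated cells. Of 11 genes for class I antigen presentation and the immunoproteasome, 3 were lower in unirradiated cells and 1, the peptide transporter Tap1, in irradiated cells. Their medians were -0.44 and -0.41.

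Markers of macrophages, cells that can be present in fibroblast cultures from whole embryos and that express many interferon-stimulated genes, moved with the members. Of 20 markers, 17 could be compared, and 16 of these were lower on both arrays labelled Wip1-/- than on both Wip1+/+ arrays, against 18.7% of all genes. At least 2-fold lower were 10 of 17 in unirradiated and 15 of 17 in irradiated cells, against 6.83% and 2.94% of all genes. The medians were -1.54 and -1.67. Lyz2, a lysozyme of macrophages, read 4533.4 and 4985.9 against 899.2 and 673.1, and Ctss, a lysosomal protease, read 1286.6 and 969.8 against 121.2 and 133.0. The summed signal of the 20 markers was 11051 and 11326 in Wip1+/+ cells and 3158 and 2734 in cells labelled Wip1-/-. None of the markers was at 0, and Itgam and Aif1 were under the floor on all 4 arrays. The members' own summed signal was 30665 and 30841 against 13313 and 13538. Markers of fibroblasts were present on every array, with 1 of 12 at least 2-fold lower in unirradiated cells and none in irradiated cells. Their medians were 0.34 and 0.16. The part of the macrophage markers in the members' difference was not tested.

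**Figure D4:**
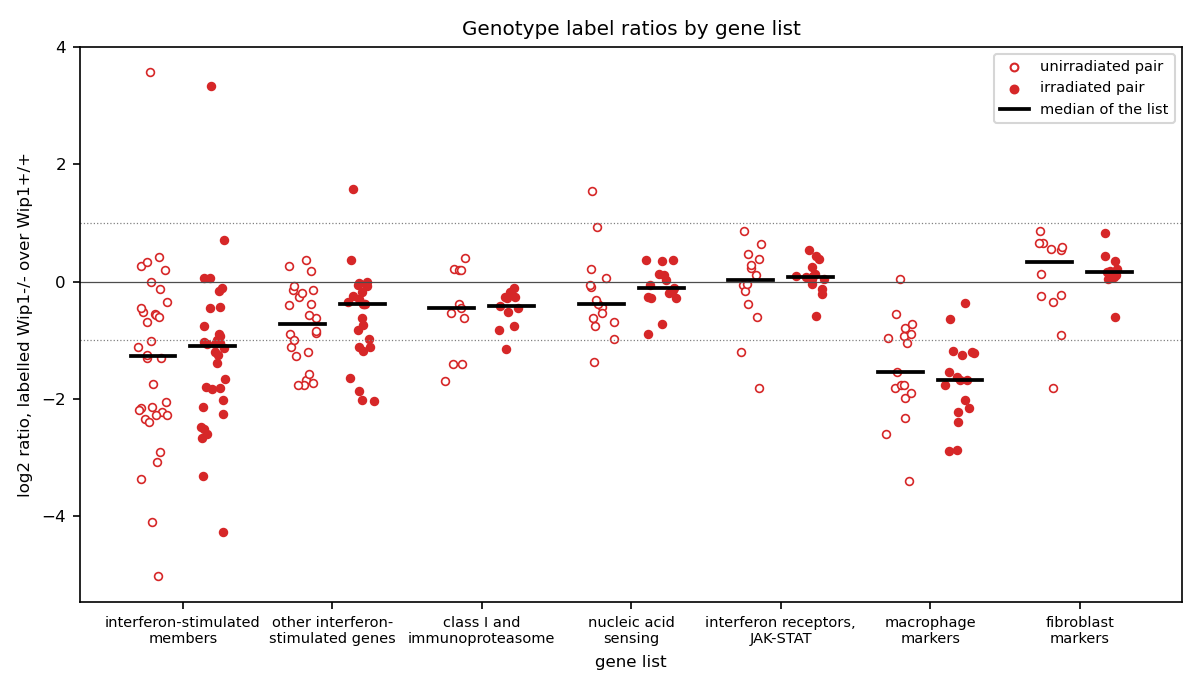
Log2 ratio of labelled Wip1-/- over Wip1+/+ for each measured gene of 7 lists, open for the unirradiated and filled for the irradiated pair of arrays, with the median as a black bar; dotted lines mark 2-fold. The members (medians -1.27 and -1.10) and the macrophage markers (-1.54 and -1.67) lie lowest, and the fibroblast markers and receptor genes lie near 0.

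The members' places in the genome were also set beside their ratios, since Ppm1d lies on chromosome 11. Of the 34 members, 8 are on that chromosome, and 6 of them were at least 2-fold lower in each comparison. Over all genes the shares were 6.83% in unirradiated and 2.94% in irradiated cells. The share among all genes of chromosome 11 was not counted. Of the 26 on other chromosomes, 14 were lower in unirradiated and 17 in irradiated cells. The lower members on chromosome 11 were Ifi35, Igtp, Irgm1, Irgm2, Xaf1 and Lgals3bp in unirradiated cells, and the same genes with Ifi47 in place of Ifi35 in irradiated cells.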

How the data were processed

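RNA from 4 groups of cells was read on 1 Affymetrix Mouse Genome 430 2.0 array each. The deposited matrix gives a linear intensity per probe set, which the authors made with GCOS (the Affymetrix software) per the submitters' processing notes; its version and settings are not stated there. Every array had a trimmed mean intensity of 500 (2% left out at each end), so no further scaling was applied. Signals under 46.5, the 40th percentile of all values, were set to that floor before log2. Control probe sets were left out, and 34945 of the other 45037 had 1 gene symbol in the platform annotation. Each gene was read from its brightest probe set and entered if its mean signal was at least 67.95, the median over probe sets; 11546 genes entered. Genes were counted as differing at 2-fold or more. Depth has no counterpart on arrays, and their number limits the precision.

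Members at least 2-fold apart in any comparison were named with all 4 signals; genes of other lists could be named if 2-fold apart between genotype labels, and not all of them are; a few pathway genes are given whatever their values. Examples among the markers were taken with their values in view. The members and lists were chosen with earlier results of these data known. Alternatives changed the scaling, floor, filter, probe set and fold. R 4.3.3, limma 3.58.1, Python 3.11.15, numpy 2.4.6 and pandas 2.3.3 were used. The calculation of ratios was run on simulated arrays with large changes planted in bright genes and little noise. That run checks the code and does not test the 2-fold counts on these arrays.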

Additional observations from a re-analysis of the deposited data

Results flagged for a closer look

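The other probe set of Xaf1, not used in the comparisons, went against the brightest one. Its log2 ratio of labelled Wip1-/- over Wip1+/+ was 3.08 in unirradiated and 3.78 in irradiated cells, with both Wip1+/+ signals under the floor, whereas the brightest probe set gave at most -5.03 and -4.27. What each probe set detects was not tested.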

How the results depend on the processing

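Each gene rests on 1 array per group, and members near the floor have only bounds. All 16 members lower in both genotype comparisons were also lower in both under quantile normalization, cyclic loess, scaling by the brighter probe sets, either other floor, no filter and without _x_at and _s_at probe sets, and 14 were with the median over probe sets, where Dtx3l and Xaf1 were not. The stricter filter kept 11 of the 16 among the genes compared, all 11 of them lower in both. Scaling by the brighter probe sets moved the median of all genes to 0.12 for the genotype ratio in unirradiated cells and to -0.12 for irradiation in cells labelled Wip1-/-.

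The cause of each of the following moves was not tested, beyond the fewer members that a stricter filter (22) or a second probe set (10) leaves. The median genotype ratio over both conditions, -1.22, was -1.08 without the unirradiated array labelled Wip1-/-. With the second brightest probe set the median genotype ratio was -0.70 in unirradiated and -0.43 in irradiated cells, 2 members were lower in each and 0 in both. That setting also gave a median of 0.26 for irradiation in cells labelled Wip1-/-, with 0 higher and 0 lower, and 1 higher and 0 lower for the difference of the irradiation ratios. It reversed Xaf1 (3.08 and 3.78) and Dtx3l in irradiated cells (0.11). Without the filter the median in unirradiated cells was -0.85 with 3 members higher, that of the difference was 0.054, and 4 were lower on irradiation under the Wip1-/- label. The stricter filter left 13 and 14 members lower between genotypes, 1 higher and 0 lower on irradiation under the Wip1-/- label, and 1 higher and 2 lower for the difference. The median over probe sets gave 0.39 for the difference with 3 lower, and 1 lower on irradiation under the Wip1-/- label. Without _x_at and _s_at probe sets 0 members were higher between genotypes in either condition or in both. Under quantile normalization, and with either other floor, 5 were higher on irradiation under the Wip1-/- label; for the difference these were 5 and 6. At 1.5-fold there were 2 higher and 1 lower on irradiation in Wip1+/+ cells, 9 and 5 under the Wip1-/- label, 11 higher for the difference and 2 higher between genotypes in irradiated cells.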
